A study of Mus musculus with 8 samples.

Results

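The genes described here encode the proteins of the mitochondrial ribosome that carry an Mrps or Mrpl symbol, measured by RNA sequencing in mouse CD4+ T cells. They were chosen by name: every symbol in the count table that begins Mrps or Mrpl followed by a digit and has at least 10 counts over the 8 libraries. That rule found 76 of the 23366 gene symbols, 29 named for the small subunit (Mrps) and 47 for the large subunit (Mrpl), and no symbol that matched fell under the minimum. The cells came from C57BL/6 mice and formed 4 groups of 2 libraries. One group was polarized to Th17 with TGFb and IL-6 for 3 days, after stimulation through CD3e and CD28, in the presence of 2 ug/ml PAM3CSK4, a synthetic lipopeptide ligand of the innate receptor TLR2 (replicates 3 and 4). A second was polarized the same way with biglycan, a matrix proteoglycan that can signal through TLR2 (replicates 7 and 8), at a dose that the labels do not state clearly. The third was polarized with the cytokines alone (Th17, replicates 1 and 2), and the fourth was naive CD4+ T cells from spleen and lymph node (replicates 1 and 2). The Th17 against naive comparison therefore combines activation, 3 days of culture and polarization, and these cannot be told apart. The labels do not state whether replicates were separate mice or cultures; p-values therefore reflect library-to-library spread, which could be technical.

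The mitochondrial ribosome is a separate machine from the cytosolic one. It sits at the matrix face of the inner membrane and translates only the few messages of mitochondrial DNA, all of which encode subunits of oxidative phosphorylation. Its RNAs are transcribed from mitochondrial DNA, while every one of its proteins is encoded in the nucleus, made in the cytosol and imported. Many of these proteins descend from bacterial ribosomal proteins; the others were gained during the evolution of mitochondria. T cells raise mitochondrial protein synthesis when they leave quiescence, and effector T cells depend on it for their respiration. Symbols are not a perfect guide to position: in human and pig structures the products of MRPS30 and MRPS18A lie in the large subunit, and MRPS36 has been reassigned to the 2-oxoglutarate dehydrogenase complex.

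Gene counts summed to between 7012244 and 12533045 per library, with the smallest totals in the naive cells. Defining markers fitted the labels: the Th17 list (6 genes) summed to 1341 to 1486 CPM with PAM3CSK4, 971 to 981 with biglycan, 856 to 1025 in Th17 alone and 7.71 to 8.06 in naive cells, where Il17a, Il23r and Ccl20 were at 0. CPM is the count scaled to library size, after TMM adjustment. A list of 5 CD8 T and NK cell markers summed to at most 9.31 CPM in any culture, against 71.8 to 72.1 CPM in naive cells. Most of the naive sum came from Prf1 (mean 50.9 CPM) and Cd8b1 (20.4 CPM). Cd8a was at 0.551 CPM in naive cells and Klrb1c at 0, and Ncr1 was at 0 in every group. A list of 6 genes for handling and RNA quality holds genes that moved in opposite directions, so its sum is given in parts, a split made after the values were seen. Its 4 early-response and stress genes (Fos, Jun, Hspa1a and Hspa1b) summed to 160 to 185 CPM with PAM3CSK4, 101 to 102 CPM with biglycan, 107 to 128 CPM in Th17 alone and 2442 to 2691 CPM in naive cells. Its 2 histone genes (Hist1h1b and Hist1h3b), which are transcribed in dividing cells, summed to 221 to 255 CPM with PAM3CSK4, 358 to 374 CPM with biglycan, 318 to 337 CPM in Th17 alone and 9.35 to 10.7 CPM in naive cells. The part of these genes in the differences below was not tested. Mitochondrial RNA took 14.5 ± 0.322% of reads with PAM3CSK4, 16.01 ± 0.136% with biglycan, 15.9 ± 0.215% in Th17 alone and 10.9 ± 1.5% in naive cells (SD, n = 2 each).

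Mitochondrial ribosomal protein messages made up a larger share of the messages in all 3 kinds of culture than in naive cells. Summed over the 76 genes, the level was 2432 and 2541 CPM with PAM3CSK4, 2585 and 2495 CPM with biglycan, 2550 and 2508 CPM in Th17 alone, and 2014 and 2249 CPM in naive cells. The lowest culture library lay above the higher naive library, and the 2 naive libraries were farther apart than those of any other group. These are shares of the RNA counted: fewer cells of a type and less RNA per cell cannot be told apart, and neither can a change in the RNA content of a whole cell be seen.

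Polarization was compared with the naive state across 74 of the 76 genes, those with enough counts to be tested. A limited number of these genes rose strongly, most moved little, and a few fell. In edgeR's quasi-likelihood test with Benjamini-Hochberg adjustment over 11629 genes (adjusted p under 0.05), 29 were higher in Th17 and 6 were lower, and 39 did not pass. Over all tested genes, 72.2% were called in this comparison, 37.8% higher and 34.4% lower. The share of the ribosomal protein genes called either way was 47.3%, that called higher was 39.2%, close to the background, and that called lower was 8.11%. Their median log2 fold change was 0.15, against 0.03 for all tested genes. The sizes were small: the median absolute log2 fold change was 0.29, against 0.65 for all tested genes, and only 5 rose at least 2-fold while 0 fell 2-fold. Changes of that size were called in 33.7% of all tested genes. In 36 genes both Th17 libraries lay above both naive libraries and in 9 both lay below, where 43.9% and 40.1% of all tested genes, 84.0% in sum, were separated in that way.

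**Figure D1:**
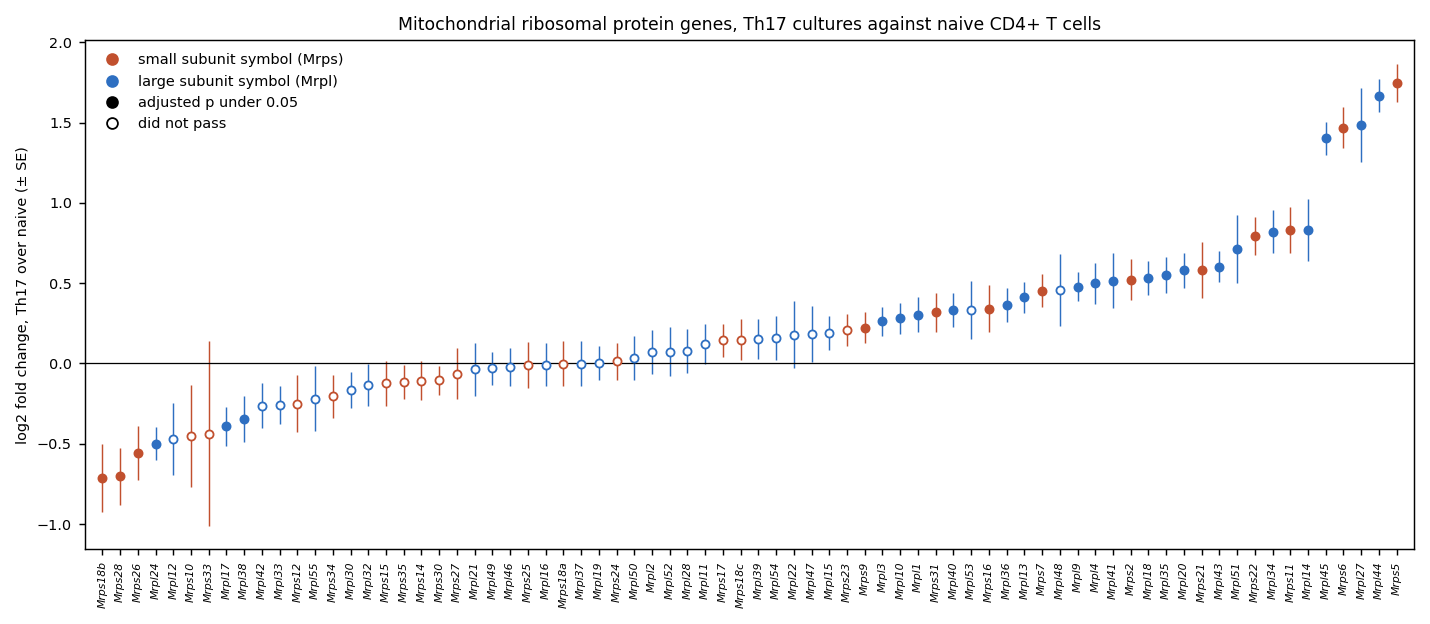
Log2 fold change (± SE) of each of the 74 tested genes in Th17 over naive cells, ordered from lowest to highest; red is an Mrps symbol, blue an Mrpl symbol, and filled points passed an adjusted p of 0.05. Mrps5, Mrpl44, Mrpl27, Mrps6 and Mrpl45 stand apart at 1.40 to 1.75, and the lowest gene, Mrps18b, is at -0.71.

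The 5 genes that rose at least 2-fold belong to different regions of the ribosome. Mrps5 is the counterpart of bacterial S5, a small subunit protein near the path of the messenger RNA and a determinant of decoding accuracy in bacteria. It had 60.2 and 67.2 CPM in Th17 against 17.8 and 19.96 CPM in naive cells. Its log2 fold change was 1.75 ± 0.12 (SE; adjusted p = 3.96e-11, edgeR), the largest among the 74. Mrpl44, a large subunit protein with no bacterial ribosomal counterpart that has the fold of an RNase III enzyme, had 81.3 and 73.3 CPM in Th17 against 23.9 and 24.8 CPM in naive cells. It rose by 1.67 ± 0.10 (adjusted p = 5.78e-12, edgeR). Both genes were thus more than 3 times as high in Th17, with libraries of the same group close together. Mrpl45, which has no bacterial ribosomal counterpart either and ties the exit of the peptide tunnel to the inner membrane, had 72.6 and 67.7 CPM in Th17 against 27.9 and 25.4 CPM in naive cells. The log2 fold change was 1.40 ± 0.10 (adjusted p = 9.58e-11, edgeR).

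Mrps6, the counterpart of bacterial S6 on the platform of the small subunit, had 45.6 and 41.1 CPM in Th17 against 15.8 and 15.5 CPM in naive cells. It rose by 1.47 ± 0.13 (adjusted p = 1.75e-09, edgeR). Mrpl27, whose bacterial counterpart reaches into the peptidyl transferase centre, was the least abundant of the 5 by counts. It had 13.4 and 10.2 CPM in Th17 against 4.33 and 4.17 CPM in naive cells, a log2 fold change of 1.48 ± 0.23 (adjusted p = 7.96e-06, edgeR). In none of the 5 did a Th17 library overlap with a naive one. All 5 passed again under each of 12 other settings of the count analysis, which included leaving out each library in turn.

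Part of what was counted under 4 of these 5 symbols could belong to a neighbour or a copy. The library kit was stranded, but whether counting used strand is not given in the sources used here. Mrps6 shares same-strand sequence with Slc5a3, an inositol transporter gene nested in its locus, which had 193 and 184 CPM in Th17 against 62.2 and 55.5 CPM in naive cells (log2 fold change 1.68). Mrpl44 overlaps Wdfy1 on the opposite strand; Wdfy1 had 193 and 173 CPM in Th17 against 32.7 and 23.6 CPM in naive cells. Mrpl27 overlaps Eme1 on the opposite strand, which had 12.99 and 17.5 CPM in Th17 against 1.64 and 1.26 CPM in naive cells, and a processed pseudogene holds a near-identical copy of its reading frame. In each of these pairs the neighbour moved in the same direction as the ribosomal protein gene, and its part in the count was not tested. Mrps5 also has a near-identical processed pseudogene, while its divergent neighbour Zfp661, which starts within 1 kb, had 4.98 and 6.38 CPM in Th17 against 4.63 and 6.06 CPM in naive cells. Mrpl45 has neither an overlapping gene nor a near-identical copy in the annotation.

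The 250 bases that precede the start of each of the 5 genes are shown because these genes share the strongest rise; they are RefSeq sequences of build GRCm38.p6, written 5′ to 3′ along the gene. All 5 genes lie on the plus strand, at chr2:127587176-127587425 (Mrps5), chr1:79775768-79776017 (Mrpl44), chr11:97315466-97315715 (Mrpl45), chr16:92058086-92058335 (Mrps6) and chr11:94653541-94653790 (Mrpl27). Capitals mark a match to one of the motifs searched.
Mrps5: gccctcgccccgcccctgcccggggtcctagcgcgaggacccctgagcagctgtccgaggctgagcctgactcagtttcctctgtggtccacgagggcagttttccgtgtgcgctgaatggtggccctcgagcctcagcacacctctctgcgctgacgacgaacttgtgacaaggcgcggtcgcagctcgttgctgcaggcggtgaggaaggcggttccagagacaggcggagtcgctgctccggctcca
Mrpl44: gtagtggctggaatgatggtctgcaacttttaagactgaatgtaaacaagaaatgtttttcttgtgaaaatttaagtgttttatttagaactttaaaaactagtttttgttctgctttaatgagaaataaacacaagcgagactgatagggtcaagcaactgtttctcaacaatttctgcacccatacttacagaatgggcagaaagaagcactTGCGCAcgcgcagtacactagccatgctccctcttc
Mrpl45: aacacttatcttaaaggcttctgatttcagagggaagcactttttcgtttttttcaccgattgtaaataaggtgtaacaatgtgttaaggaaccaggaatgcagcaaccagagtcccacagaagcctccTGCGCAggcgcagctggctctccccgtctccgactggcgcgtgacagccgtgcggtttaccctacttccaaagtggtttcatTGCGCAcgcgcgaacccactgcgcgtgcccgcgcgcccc
Mrps6: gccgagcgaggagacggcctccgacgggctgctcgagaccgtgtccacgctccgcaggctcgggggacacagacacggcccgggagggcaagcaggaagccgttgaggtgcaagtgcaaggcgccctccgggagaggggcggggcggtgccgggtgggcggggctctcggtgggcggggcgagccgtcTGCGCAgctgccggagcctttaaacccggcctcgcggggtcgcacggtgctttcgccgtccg
Mrpl27: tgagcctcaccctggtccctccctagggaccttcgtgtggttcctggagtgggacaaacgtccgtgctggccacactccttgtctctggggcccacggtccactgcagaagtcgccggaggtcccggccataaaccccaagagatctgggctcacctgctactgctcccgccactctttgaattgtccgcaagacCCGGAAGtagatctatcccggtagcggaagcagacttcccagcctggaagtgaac
The motifs were those of factors known for nuclear genes of mitochondrial proteins, searched on both strands: CCGGAAG for the ETS family with GABPA, TGCGCA, the core of the NRF1 site, AAGATGG for YY1, CACGTG for the E-box of MYC and USF, and CCAAT for NF-Y. The NRF1 core was present once in Mrpl44 (36 bases before the start) and Mrps6 (62 bases) and at 121 and 39 bases in Mrpl45, Mrpl27 had the ETS letters at 55 bases, and Mrps5 had none of the motifs. Base composition differed widely, with G or C at 74.4% of the bases for Mrps6 and at 38.0% for Mrpl44. A window was found for 67 of the 76 genes, 73 windows in all because some genes have several starts. The ETS letters were in 23.3% of these, in 14.1% of 11034 windows of tested genes and in 6.91% of all 32851 windows. The NRF1 core was in 23.3%, 11.7% and 6.43% of the same sets, the E-box in 9.59%, 8.44% and 6.02%, CCAAT in 38.4%, 35.2% and 33.8%, and the YY1 letters in 8.22%, 4.48% and 4.49%. A match is a description of letters and not of a bound site. The ETS letters were in 8 of 28 windows of genes that rose, in 2 of 4 windows of genes that fell and in 7 of 39 windows of genes that did not pass, and the NRF1 core was in 8, 2 and 6 of these.

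**Figure D2:**
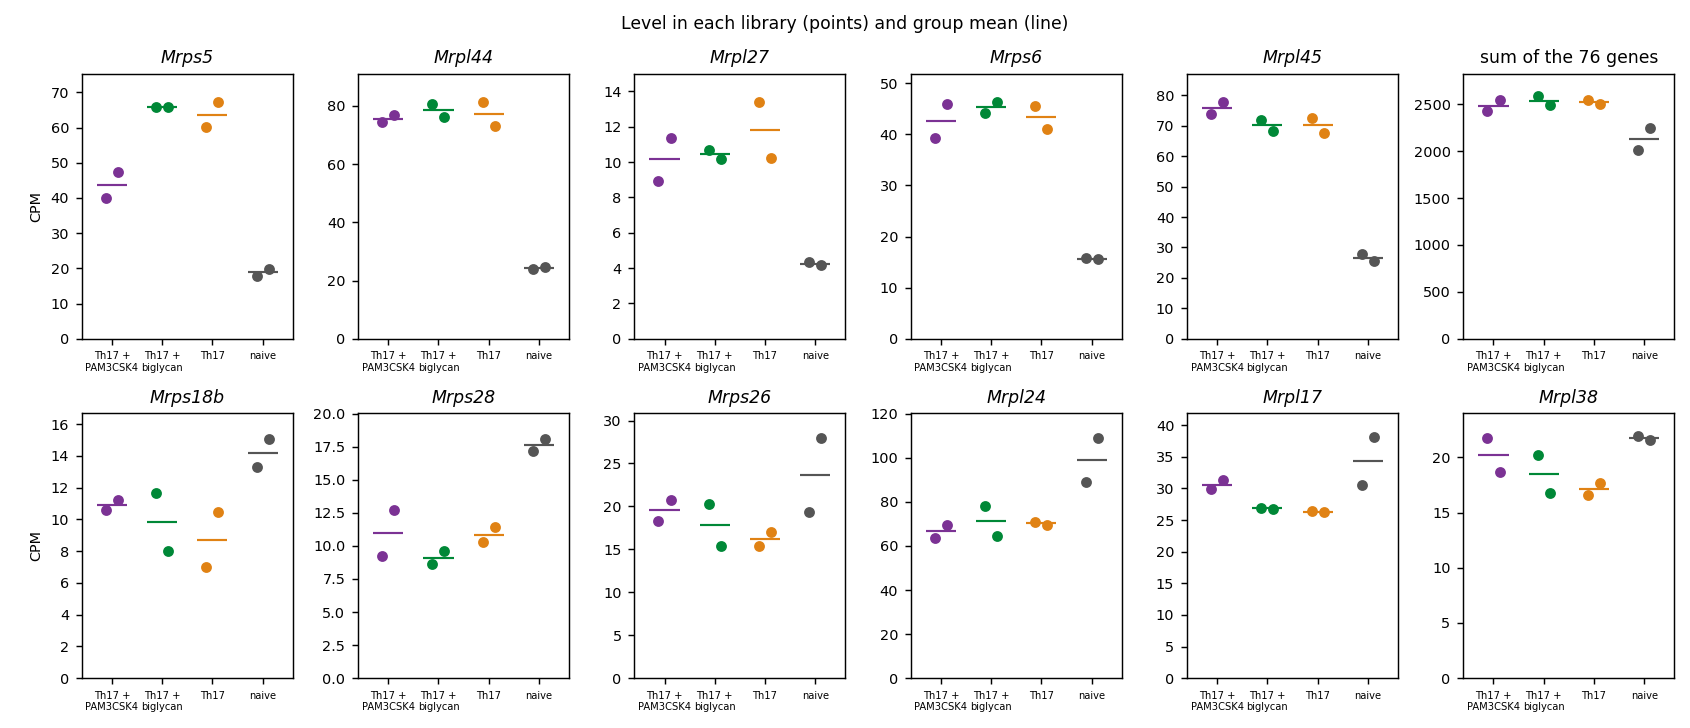
Level in CPM of the 5 genes with the strongest rise, the sum of the 76 genes, and the 6 genes that were lower in Th17; each panel shows both libraries of the PAM3CSK4, biglycan, Th17 and naive groups as points and their mean as a line, on an axis that starts at 0. Mrps5 is the gene whose PAM3CSK4 libraries (39.98 and 47.4 CPM) lie below those of the other cultures.

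A second tier rose by between 0.71 and 0.83 on the log2 scale. Mrpl14, whose bacterial counterpart forms a bridge between the subunits, had 12.9 and 12.1 CPM in Th17 against 5.97 and 7.96 CPM in naive cells (0.83 ± 0.19, adjusted p = 0.000681, edgeR). Mrps11, the counterpart of S11 on the platform, had 24.6 and 27.7 CPM in Th17 against 13.1 and 16.04 CPM in naive cells (0.83 ± 0.14, adjusted p = 3.23e-05, edgeR). Mrps11 shares its start region with another member, Mrpl46, on the opposite strand, and that gene did not pass: it had 30.3 and 33.6 CPM in Th17 against 34.8 and 30.2 CPM in naive cells. So the divergent pair of a small and a large subunit gene was separated, Mrps11 with its groups apart and Mrpl46 with its groups overlapping. Mrpl34, the counterpart of a short bacterial large subunit protein, had 27.6 and 29.1 CPM in Th17 against 16.9 and 15.3 CPM in naive cells (0.82 ± 0.13, adjusted p = 1.49e-05, edgeR). Mrps22, a small subunit protein with no bacterial counterpart, had 35.8 and 34.2 CPM in Th17 against 20.1 and 20.2 CPM in naive cells (0.79 ± 0.12, adjusted p = 4.81e-06, edgeR). Mrpl51, which has no bacterial counterpart, had 12.8 and 11.02 CPM in Th17 against 8.95 and 5.81 CPM in naive cells (0.71 ± 0.21, adjusted p = 0.00562, edgeR); without naive replicate 2 it was 0.41 with an adjusted p of 0.136, and it has a near-identical copy. The others of this tier kept their call with each library left out.

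The 6 genes that fell did so by less than 2-fold. Mrps18b is a paralogue of Mrps18a and Mrps18c, which all descend from bacterial S18. It had 7.003 and 10.4 CPM in Th17 against 13.3 and 15.03 CPM in naive cells (-0.71 ± 0.21, adjusted p = 0.00482, edgeR), and without Th17 replicate 1 it no longer passed (-0.45, adjusted p = 0.0900). Its paralogues had 22.3 and 21.9 CPM in Th17 against 19.7 and 24.4 CPM in naive cells for Mrps18a, and 22.3 and 23.6 CPM against 20.7 and 20.6 CPM for Mrps18c, and neither passed. Mrps28, a small subunit protein, had 10.3 and 11.4 CPM in Th17 against 17.2 and 18.1 CPM in naive cells (-0.70 ± 0.18, adjusted p = 0.00131, edgeR). Mrpl24, whose bacterial counterpart initiates large subunit assembly beside the tunnel exit, had 71.05 and 69.4 CPM in Th17 against 89.2 and 109 CPM in naive cells (-0.50 ± 0.10, adjusted p = 0.000219, edgeR). Mrpl24 overlaps Rrnad1 on the opposite strand. Rrnad1 had 13.2 and 16.5 CPM in Th17 against 18.2 and 22.4 CPM in naive cells (log2 fold change -0.46). The part of Rrnad1 in the count of Mrpl24 was not tested. These, Mrps28 and Mrpl24, were the members called lower in all 12 other settings.

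The calls on the other falls did not hold with every library. Mrps26, a small subunit protein with no bacterial counterpart, had 15.4 and 17.01 CPM in Th17 against 19.4 and 27.9 CPM in naive cells (-0.56 ± 0.17, adjusted p = 0.00631, edgeR); without naive replicate 2 it was -0.27 with an adjusted p of 0.223. Mrpl17, a neighbour of the tunnel exit in bacteria, had 26.4 and 26.2 CPM in Th17 against 30.6 and 38.1 CPM in naive cells (-0.39 ± 0.12, adjusted p = 0.00674, edgeR), and -0.22 with an adjusted p of 0.158 without naive replicate 2. Mrpl38, a large subunit protein with no bacterial counterpart, had 16.6 and 17.7 CPM in Th17 against 21.9 and 21.6 CPM in naive cells (-0.34 ± 0.14, adjusted p = 0.0372, edgeR), and it lost its call with any of the 4 Th17 and naive libraries left out, while the value stayed between -0.39 and -0.30. The windows before Mrps26 and Mrpl24 are shown, 2 of the 4 windows found for genes that fell. The other 2 hold the NRF1 core, at 50 and 12 bases before the start of Mrpl17 and at 220 bases in Mrps18b. Mrpl17 also has the ETS letters at 237 bases. The windows shown therefore do not stand for all the genes that fell. Those of Mrps26 and Mrpl24 lie at chr2:130563507-130563756 and chr3:87919294-87919543 of GRCm38.p6, both on the plus strand.
Mrps26: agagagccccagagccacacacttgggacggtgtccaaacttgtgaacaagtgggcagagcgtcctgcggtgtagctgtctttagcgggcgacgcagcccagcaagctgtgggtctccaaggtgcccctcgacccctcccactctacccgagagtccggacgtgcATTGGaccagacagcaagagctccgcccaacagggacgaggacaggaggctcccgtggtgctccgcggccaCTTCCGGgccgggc
Mrpl24: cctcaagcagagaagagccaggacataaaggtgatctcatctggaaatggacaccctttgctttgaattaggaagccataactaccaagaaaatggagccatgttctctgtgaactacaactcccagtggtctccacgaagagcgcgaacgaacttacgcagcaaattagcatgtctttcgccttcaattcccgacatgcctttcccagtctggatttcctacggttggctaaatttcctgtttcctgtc
Capitals mark a CCAAT match 85 bases and an ETS match 14 bases before the start of Mrps26, both on the opposite strand; Mrpl24 has none of the motifs in this window.

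Of the 29 rises, 20 passed in all 12 settings. The others, Mrpl1, Mrpl3, Mrpl10, Mrpl36, Mrpl41, Mrpl51, Mrps9, Mrps16 and Mrps31, had an adjusted p between 0.0047 and 0.0464 (edgeR) and each lost the call when some library was left out. In Mrpl1, Mrpl36, Mrps9, Mrps16 and Mrps31 the log2 fold change itself stayed within 1.5 times its value with all libraries; for Mrps16 it was 0.29 to 0.39 against 0.34. It moved further in Mrpl51, in Mrpl3 (0.16 without Th17 replicate 1, against 0.26), in Mrpl10 (0.18 without naive replicate 1, against 0.28) and in Mrpl41 (0.31 without naive replicate 1, against 0.51). The 2 naive libraries weighed most on the family as a whole. Replicate 2 was higher than replicate 1 in 52 of the 74 genes (70.3%, against 50.4% of all tested genes), by a median of 0.12 on the log2 scale. Without naive replicate 1 the median log2 fold change of the tested members was 0.06 with 25 higher and 9 lower of the 76 that then passed the filter on low counts, and without naive replicate 2 it was 0.28 with 30 higher and 3 lower of 75. What distinguishes these libraries was not tested. The balance of calls also depended on the scale: with limma on log2 of the deposited RPKM plus 0.5, an alternative added after seeing the data, 46 were higher and 1, Mrps28, was lower. On that scale the median of all tested genes was itself 0.30, and the members' median of 0.42 was 0.12 above it, against 0.11 above it in the count model.

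The subunits did not divide the response cleanly. Among genes named for the small subunit, 10 of 28 rose and 3 fell, with a median log2 fold change of 0.005; among those named for the large subunit, 19 of 46 rose and 3 fell, with a median of 0.18. Genes with a bacterial counterpart numbered 21 higher and 4 lower of 47 (median 0.18), and those with none 8 higher and 2 lower of 27 (median 0.07). These are counts, and no difference between the subsets was tested. The stalk, a pair chosen after its values were seen, gave 1 call. Mrpl10, the base of the stalk that recruits translation factors, had 62.4 and 62.2 CPM in Th17 against 47.3 and 54.95 CPM in naive cells and rose by 0.28 ± 0.10 (adjusted p = 0.0129, edgeR), a call that ended without naive replicate 1. Mrpl12, the mobile stalk protein that Mrpl10 anchors, had 8.52 and 6.38 CPM in Th17 against 7.76 and 12.8 CPM in naive cells, with overlapping groups and a log2 fold change of -0.47 ± 0.22 (adjusted p = 0.0668, edgeR); without naive replicate 1 it was -0.77 (adjusted p = 0.00496) and without Th17 replicate 1 it was -0.71 (adjusted p = 0.0296).

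PAM3CSK4 was compared with Th17 alone to see what the TLR2 ligand added. Of the 74 genes, 1 was lower with PAM3CSK4 and 0 were higher, where 9.99% of all tested genes were called, 5.21% higher and 4.78% lower. The gene that fell was Mrps5, which has a near-identical processed pseudogene whose part in the count was not tested. Mrps5 also had the largest rise in Th17. It had 39.98 and 47.4 CPM with PAM3CSK4 against 60.2 and 67.2 CPM in Th17 alone. The log2 fold change was -0.55 ± 0.10 (adjusted p = 0.00133, edgeR). In each of 11 other settings of the count analysis it passed again, with adjusted p between 7.38e-06 and 0.0445; with limma on the deposited RPKM it was -0.48 with an adjusted p of 0.104. Among the 556 genes called lower with PAM3CSK4 its fall ranked 203, so it was not an extreme one. The naive libraries had 17.8 and 19.96 CPM, so that both PAM3CSK4 libraries lay between the naive and the Th17 ones. The comparisons with naive cells and with PAM3CSK4 share the Th17 libraries.

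The 73 other genes did not pass with PAM3CSK4; 3 of the 74 had an unadjusted p under 0.05, DESeq2 called 0 higher, and the median log2 fold change was -0.04. Both PAM3CSK4 libraries lay above both Th17 libraries in 11 members and below them in 17, where 26.5% and 26.5% of all tested genes, 52.9% in sum, were apart. Those nearest to a call were on both sides. Mrpl4, a tunnel-wall protein in bacteria, had 38.6 and 40.2 CPM with PAM3CSK4 against 34.8 and 30.4 CPM in Th17 alone (0.27 ± 0.11, adjusted p = 0.146, edgeR). Mrpl41, a large subunit protein with no bacterial counterpart, had 17.6 and 14.4 CPM with PAM3CSK4 against 19.7 and 21.6 CPM in Th17 alone (-0.36 ± 0.16, adjusted p = 0.169, edgeR). Mrpl17 and Mrpl38, both called lower in Th17 than in naive cells, were at 0.22 and 0.24 with adjusted p of 0.280 and 0.312, and Mrps17 was at -0.20 with an adjusted p of 0.246. Between the PAM3CSK4 libraries, replicate 4 was above replicate 3 in 51 of the 74 genes (68.9%, against 51.2% of all tested genes). On simulated counts for this comparison, a change of 1 on the log2 scale was called in 88% of the changed genes and a change of 0.5 in 57.6%. Changes of 0.5 can therefore be missed. These shares are over genes of all levels and do not give the rate for a gene at the level of Mrps5. The simulation also changed far fewer genes than were called in the data.

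**Figure D3:**
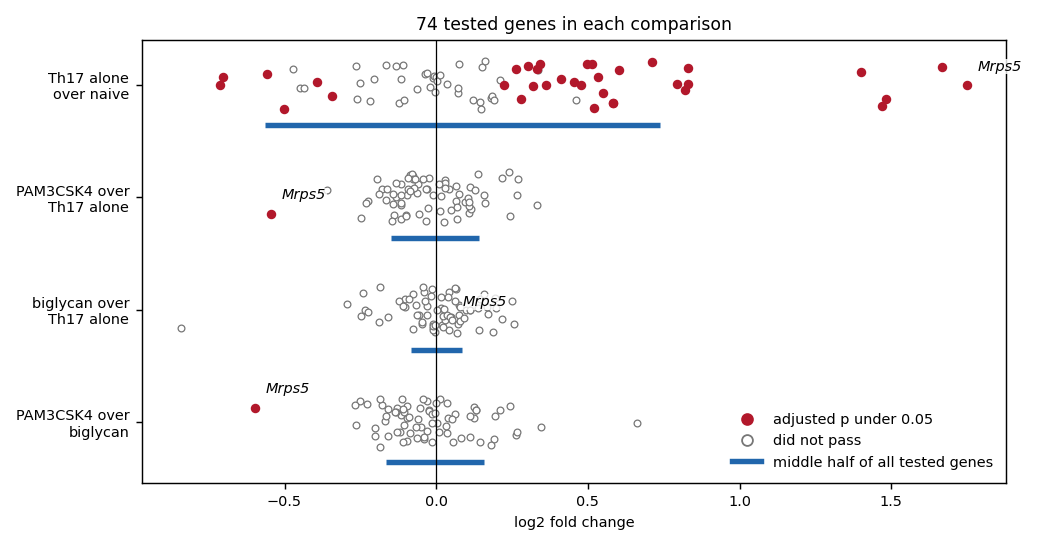
Log2 fold change of the 74 tested genes in the 4 comparisons, each named with the group on top of the ratio first; red points passed an adjusted p of 0.05 and the blue bar spans the middle 50% of all tested genes. Th17 over naive has 35 red points, the 2 comparisons of PAM3CSK4 have Mrps5 alone, and biglycan over Th17 has none.

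Biglycan was compared with Th17 alone in the same way. No gene of the 74 passed in either direction, and neither did any of the 11629 tested genes, a background of 0.0%; edgeR gave an unadjusted p under 0.05 for 2 members and 506 of all genes, and DESeq2 called 0 members. The median log2 fold change of the members was 0.02. Mrps5 had 65.97 and 65.98 CPM with biglycan against 60.2 and 67.2 CPM in Th17 alone (0.05 ± 0.10). The smallest p-values among the members belonged to Mrpl35, with 34.98 and 33.2 CPM with biglycan against 40.6 and 39.1 CPM in Th17 alone (-0.23 ± 0.11), and to Mrps31, with 24.3 and 24.7 CPM against 29.5 and 28.4 CPM (-0.24 ± 0.11). In both the groups did not overlap; biglycan libraries lay above in 12 members and below in 10, where 17.3% and 16.9% of all tested genes, 34.2% in sum, were apart. On the higher side the smallest belonged to Mrpl4 (0.22 ± 0.11), Mrps27 (0.25 ± 0.15) and Mrpl49 (0.17 ± 0.10), and Mrpl41 was at -0.30 ± 0.16.

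PAM3CSK4 was set directly against biglycan, the test of whether the ligands differ. Mrps5 was lower with PAM3CSK4, by -0.60 ± 0.10 on the log2 scale (adjusted p = 0.000668, edgeR), from the libraries given above, and 0 members were higher. Over all tested genes 11.5% were called, 5.64% higher and 5.88% lower. The call on Mrps5 held in the 11 settings, and with limma on RPKM the value was -0.66 with an adjusted p of 0.0542. Mrpl33 had 45.2 and 51.8 CPM with PAM3CSK4 against 39.8 and 36.5 CPM with biglycan (0.34 ± 0.12, adjusted p = 0.0589, edgeR), and Mrps7, a protein of the small subunit head in bacteria, had 53.9 and 55.7 CPM against 43.6 and 47.5 CPM (0.27 ± 0.10, adjusted p = 0.0846, edgeR). Both missed the threshold with all 4 groups in the model and passed when only these 2 groups were fitted. PAM3CSK4 libraries lay above those with biglycan in 12 members and below in 19, where 29.8% and 29.1% of all tested genes, 58.9% in sum, were apart. Mrpl30 (0.21 ± 0.11), Mrpl34 (-0.27 ± 0.12) and Mrpl28 (-0.25 ± 0.13) came next and did not pass.

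Levels can be compared between genes only per length, and for that the deposited RPKM were used. The median of the tested members, each averaged over the 8 libraries, was 15.5 RPKM, and the middle 50% lay between 8.16 and 21.6 RPKM, within a factor of 2.64. From the lowest to the highest, the spread was a factor of 194. Mrpl33, a short protein of the large subunit, was highest: 82.4 ± 7.57 RPKM with PAM3CSK4, 66.2 ± 4.15 with biglycan, 68.7 ± 7.37 in Th17 alone and 70.5 ± 14.4 in naive cells (SD, n = 2 each). Mrpl52 averaged 58.1 RPKM over the 8 libraries, Mrpl54 50.02, Mrpl9 48.8 and Mrpl24 43.9. Neighbours in this order overlapped: among Th17 libraries Mrpl52 had 59.3 ± 6.19, Mrpl54 52.8 ± 4.31 and Mrpl9 54.7 ± 4.01 RPKM. The lowest tested member was Mrps33 at 0.372 RPKM, followed by Mrps10 at 1.49, Mrps25 at 1.85, Mrpl17 at 2.31 and Mrpl48 at 2.49 RPKM. By symbol the subunits were alike in level, with medians of 15.8 RPKM for Mrps and 13.5 RPKM for Mrpl.

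**Figure D4:**
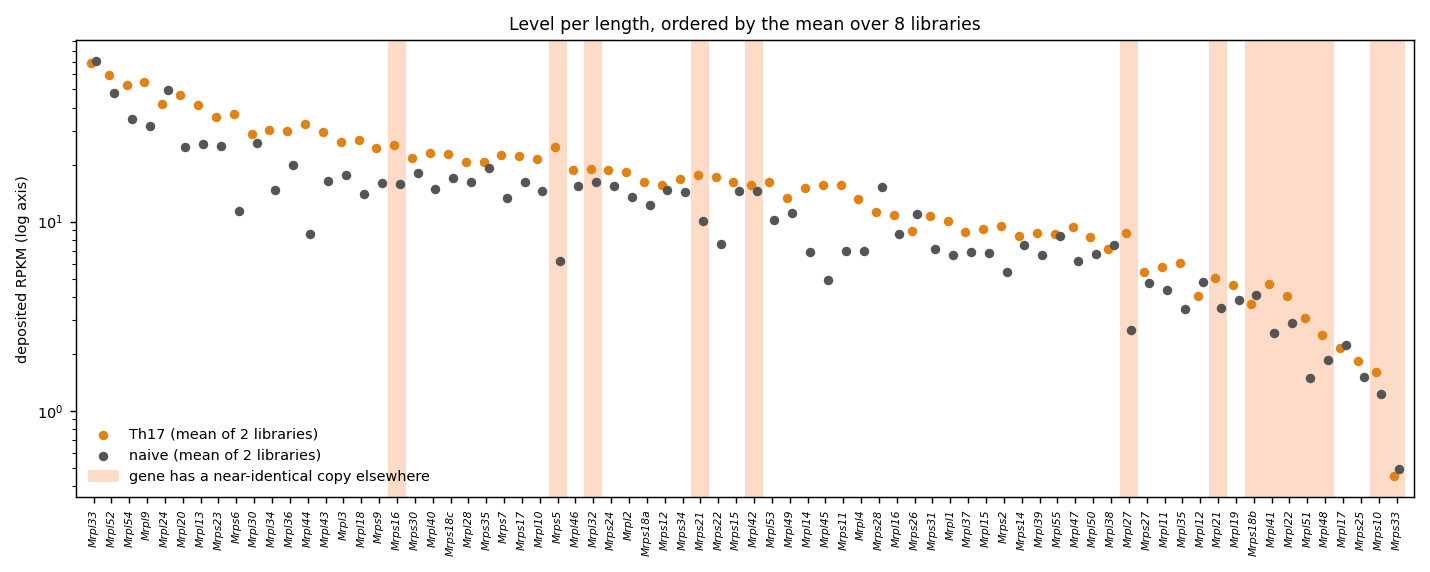
Deposited RPKM of the 74 tested genes on a log axis, ordered by the mean over 8 libraries, with the Th17 mean in orange and the naive mean in grey; shading marks genes with a near-identical copy elsewhere in the genome. The shaded genes crowd the low end, with a median of 4.53 RPKM against 15.9 RPKM for the others.

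Near-identical copies went with the lowest levels. For 16 of the 76 genes, the longest reading frame matched another annotated transcript at 95% identity or more over at least 50% of its length. The 10 members with the fewest counts included 9 of these; the exception was Mrpl12, with 701 counts. Median counts over the 8 libraries were 859 for genes with a copy and 2637 for those without. In every library, alignments that were not unique took 73.4 to 77.1% of the table's total, and reads that match a gene and its copy equally well would fall there. Whether this lowers the counts of these genes was not tested. Mrps10, Mrps16, Mrps18b, Mrps21, Mrps33, Mrps36, Mrpl21, Mrpl22, Mrpl23, Mrpl27, Mrpl32, Mrpl41, Mrpl42, Mrpl48, Mrpl51 and Mrps5 are therefore uncertain in level. Leaving the copied genes out changed little in Th17 against naive: 23 of 60 were higher and 5 lower. In both comparisons of PAM3CSK4, 0 of the 60 genes without a copy were called, because Mrps5 is itself a copied gene.

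The genes that could not be tested were both of this kind. Mrps36, now assigned in human and yeast to the 2-oxoglutarate dehydrogenase complex, has 4 such copies and had 2 and 3 counts with PAM3CSK4, 4 and 8 with biglycan, 11 and 15 in Th17 alone, and 5 and 1 in naive cells. Both Th17 libraries lay above the other 6. With no filter on low counts its fall with PAM3CSK4 against Th17 passed (log2 fold change -2.42, adjusted p = 0.0443, edgeR), a call on these few counts that was noticed after its values were seen. Mrpl23, a tunnel-exit protein in bacteria, had 12 and 9 counts with PAM3CSK4, 5 and 5 with biglycan, 6 and 6 in Th17 alone, and 4 and 11 in naive cells. Scaled to library size these were 0.941 and 0.813 CPM with PAM3CSK4, 0.525 and 0.529 CPM with biglycan, 0.506 and 0.580 CPM in Th17 alone, and 0.597 and 1.39 CPM in naive cells. The PAM3CSK4 libraries lay between the naive ones, and those of the other cultures below both, on a difference of a few counts. The tested member with the fewest counts was Mrps33, with 63 in all.

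A genomic arrangement that was not used to choose the members was more frequent among them than among tested genes. A protein-coding gene on the other strand starts within 1 kb of 32 of the 76 (42.1%), against 17.7% of 10503 tested protein-coding genes. An opposite-strand overlap was annotated for 23 (30.3%, against 21.6%) and a same-strand overlap for 4 (5.26%, against 5.54%). Among the strongest rises and falls, some pairs with a shared start region moved in the same direction and others did not. Wdfy1, which starts opposite Mrpl44, rose by 2.71 on the log2 scale, and Eme1, opposite Mrpl27, rose by 3.39, as both members rose. Ncapd2, a condensin gene that starts opposite Mrpl51, rose by 2.77 where Mrpl51 rose by 0.71. Zfp661 differed by 0.07 ± 0.25 where Mrps5 rose by 1.75, and Mrpl46 and Tmem63b did not pass where Mrps11 and Mrpl14 rose. Ppp1r10 rose by 0.20 where Mrps18b fell.

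Other genes of mitochondrial protein synthesis were read from lists of related function, whose counts stand against 37.8% higher and 34.4% lower over all tested genes, with a median of 0.03. Of 7 further mitochondrial ribosomal proteins that carry other symbols, Ict1 rose in Th17 (0.42 ± 0.11, adjusted p = 0.0016, edgeR) while Ptcd3 (-0.59 ± 0.09) and Mrp63 (-0.43 ± 0.13) fell, the last with a call that ended when naive replicate 2 or Th17 replicate 2 was left out. Ict1 is a peptidyl-tRNA hydrolase built into the large subunit, and Ptcd3 is a small subunit protein. Assembly and rRNA modification factors numbered 5 higher (22.7%) and 7 lower (31.8%) of 22 (median -0.20), shares not far from those of all tested genes, and 8 higher and 6 lower without naive replicate 2 (median -0.10). Ddx28, a helicase of large subunit assembly, had 76.3 and 75.7 CPM in Th17 against 11.9 and 15.03 CPM in naive cells (2.48 ± 0.13, adjusted p = 3.74e-13, edgeR), and Ybey, an endonuclease for rRNA, rose by 1.57 ± 0.18. Mrm1, a methyltransferase of the large rRNA, had 7.51 and 9.18 CPM in Th17 against 28.5 and 29.7 CPM in naive cells (-1.81 ± 0.16, adjusted p = 2.06e-09, edgeR), and Rbfa, a small subunit assembly factor, fell by 0.74 on the log2 scale. So the assembly genes included larger changes in both directions than the ribosomal proteins they act on.

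Translation factors numbered 4 higher and 2 lower of 14 (median 0.18). Slirp, an RNA-binding partner of Lrpprc, rose by 0.92 ± 0.13, while Lrpprc itself was at -0.30 ± 0.08 and at 0.05 with an adjusted p of 0.565 on the RPKM scale. Mitochondrial aminoacyl-tRNA synthetases and partners had 4 higher (20%) and 9 lower (45%) of 20 (median -0.27), where all tested genes had 37.8% and 34.4%: Aars2 rose by 0.78 ± 0.14, and Ears2 fell by 1.68 and Mars2 fell by 1.19 on the log2 scale. Without naive replicate 2 or Th17 replicate 1, 2 of these 20 were higher, and without naive replicate 1 or Th17 replicate 1, 2 translation factors were higher; without Th17 replicate 1 the number of translation factors lower was 1. In the list for mitochondrial DNA transcription and maintenance 5 of 10 were lower and 0 higher, among them Polg2 (-1.47 ± 0.13) and Tfb2m (-2.17 ± 0.33). Among known activators of nuclear genes for mitochondrial proteins 4 of 9 were lower and 0 higher, including Nrf1, with 74.8 and 77.8 CPM in Th17 against 119.8 and 120.01 CPM in naive cells (-0.65 ± 0.08, adjusted p = 3.11e-07, edgeR), and Pprc1 (-1.61 ± 0.11). Mitochondrial chaperone, protease and import genes had 8 of 14 lower and 0 higher, with Tomm20 at -0.95 ± 0.12 and Hspa9 at -0.46 ± 0.08. Without naive replicate 1, each of the lists for mitochondrial DNA, for activators and for chaperones and import had 1 gene higher, and the median of the activators was -0.11 against -0.25 with all libraries; without naive replicate 2 the chaperone and import list had 1 higher.

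**Figure D5:**
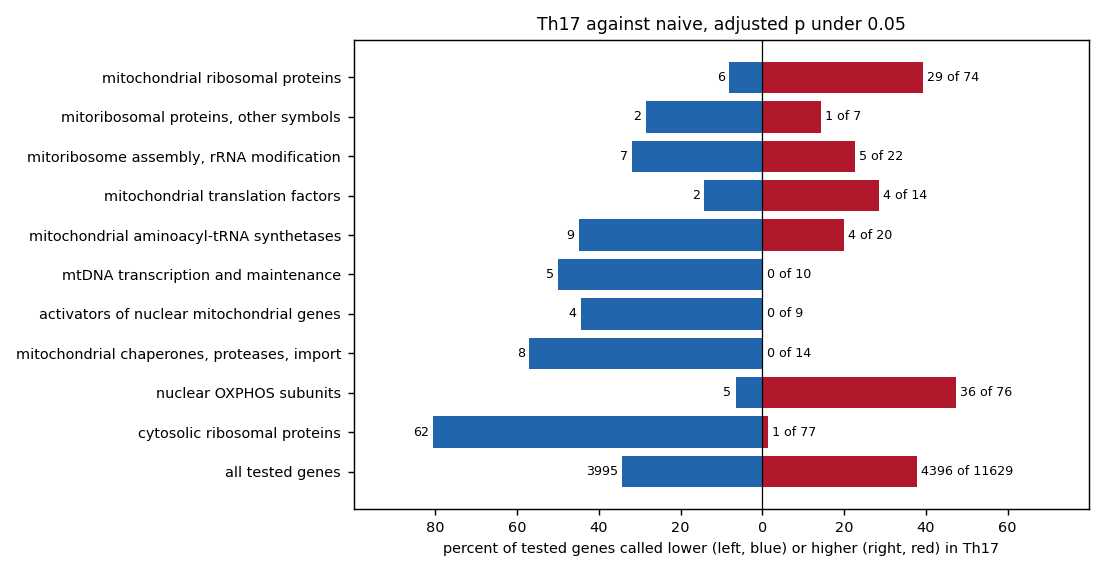
Percent of tested genes called higher (red, to the right) or lower (blue, to the left) in Th17 against naive cells for the mitochondrial ribosomal proteins, 9 related lists and all tested genes, with the counts printed beside the bars. The ribosomal proteins (29 and 6 of 74) and the nuclear oxidative phosphorylation subunits (36 and 5 of 76) have more calls to the right, and the cytosolic ribosomal proteins (1 and 62 of 77) more to the left; over all tested genes 37.8% were higher and 34.4% lower.

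The nuclear subunits of oxidative phosphorylation, which assemble with the products of the mitochondrial ribosome, had 36 of 76 higher and 5 lower in Th17 (median 0.26); without Th17 replicate 2 the number lower was 1 and without naive replicate 2 it was 3. Cytosolic ribosomal proteins had 1 of 77 higher and 62 lower (median -0.67), a family rich in pseudogenes whose counts are uncertain for the reason given above. Without naive replicate 1 the oxidative phosphorylation median was 0.15 with 26 higher. The early-response and stress genes had higher sums in naive cells and the histone genes in Th17, and the part of neither in these lists was tested.

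With PAM3CSK4 against Th17 alone, few genes of these lists passed. Myc, a transcription factor that raises ribosome production, had 111 and 114 CPM with PAM3CSK4 against 71.1 and 55.95 CPM in Th17 alone (0.82 ± 0.10, adjusted p = 2.84e-05, edgeR). Pprc1, a growth-regulated coactivator of the PGC-1 family, had 37.1 and 35.9 CPM with PAM3CSK4 against 23.96 and 23.8 CPM in Th17 alone (0.61 ± 0.11, adjusted p = 0.000981, edgeR). Hspa9, the mitochondrial Hsp70, was at 0.28 ± 0.08 (adjusted p = 0.0281) and the DNA polymerase gene Polg at 0.25 ± 0.08 (adjusted p = 0.04, edgeR in both cases). Polg lost its call with each of the 4 libraries left out (0.22 to 0.29 on the log2 scale, adjusted p 0.0713 to 0.289) and Hspa9 with 3 of them (adjusted p 0.131 to 0.314, with values of 0.21 to 0.36 over the 4). These changes stood beside a family of ribosomal protein genes in which Mrps5 alone passed.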

How the data were processed

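Messenger RNA of 8 libraries was sequenced by the authors with a stranded mRNA kit, per the labels' protocols, and processed with Bowtie2 and HTSeq on build mm9, per the submitters' processing notes; for versions, annotation and strand setting, nothing is given in the sources used here. Deposited counts are raw whole numbers per gene symbol (23366 symbols; 5 summary lines were left out), and the deposited RPKM are the authors' values per length and depth. Separate deposited contamination tables give the percent of mitochondrial and of ribosomal RNA, per the file headers. The biglycan columns are numbered 5 and 6 in the count table and were matched through their library numbers to the samples titled 7 and 8. From the counts, edgeR 4.0.16 in R 4.3.3 (filterByExpr by group, 11629 genes kept, TMM, 1 quasi-likelihood model over 8 libraries with 4 residual degrees of freedom) gave log2 fold changes ± SE and Benjamini-Hochberg adjusted p-values over all tested genes. The common coefficient of variation across libraries, which edgeR terms biological and which could be technical here, was 6.19%. A spread this low between libraries lets small changes pass. The procedure was tested on simulated data, where 8 of 153 calls were false. No pair of libraries agreed within sampling noise (chi-square per degree of freedom 2.62 to 5.86). DESeq2 1.42.0, other scalings, no filter, robust estimation, only the groups compared, a replicate block, each library left out, and, added after seeing the data, limma 3.58.1 on log2 of the RPKM plus 0.5 and the members without a copy were alternatives. Replicates 1 and 2 of Th17 and naive cells share their numbers, and the labels do not state whether they are paired. Copies were sought with BLAST 2.17.0 in GENCODE transcripts, and motifs in RefSeq promoter windows (GRCm38.p6). Named were the members with the strongest rise and fall among calls with groups apart (up to 10 each), all calls or the 3 smallest p per direction in the other comparisons, the 5 highest and lowest by RPKM, the untested, and up to 2 per direction from each list, and further genes chosen after their values were seen (Mrps18a, Mrps18c, Mrpl10, Mrpl12, Mrpl46, the neighbours and the genes with unstable calls). The members and lists were chosen with earlier results of these data known.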

Additional observations from a re-analysis of the deposited data

Results flagged for a closer look

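Mrps5 differed between the 2 TLR2 ligands: its log2 fold change with PAM3CSK4 against biglycan was -0.60 ± 0.10 (SE; adjusted p = 0.000668, edgeR's quasi-likelihood test with all 4 groups), with 39.98 and 47.4 CPM in the PAM3CSK4 libraries and 65.97 and 65.98 CPM in the biglycan libraries. Against Th17 alone it was at -0.55 with PAM3CSK4 and at 0.05 with biglycan. It was set apart because the difference between the ligands was itself tested and passed. Mrps5 has a near-identical processed pseudogene, and the part of that copy in its count was not tested. The biglycan dose is not clear from the labels, so that ligand and dose cannot be told apart.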

How the results depend on the processing

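Of the values for single genes, 841 kept their direction and their side of the threshold under the settings listed first, 80 lost their call and 3 gained one; none reversed. Under the added RPKM alternative 49 kept both, 30 lost their call and 1 reversed, Lrpprc in Th17 against naive (0.051). In Th17 against naive, limma on RPKM gave 46 higher and 1 lower with a median of 0.42, and library totals as scaling gave a median of 0.20; leaving out 1 library gave 25 to 30 higher, 3 to 9 lower and medians of 0.062 to 0.28. Against Th17, PAM3CSK4 had 2 members lower with no filter and with only the 2 groups, the second being Mrps36, and 0 with RPKM. Biglycan against Th17 had a median of 0.10 with RPKM. Against biglycan, PAM3CSK4 had 1 member higher with no filter, 2 with only the 2 groups and 0 lower with RPKM, and medians of -0.085 to -0.0031 with 1 library left out. That single calls moved with fewer samples or genes is built into these alternatives; for the others the cause was not tested.

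A fit with the replicate number as a block in Th17 against naive gave 28 higher, 6 lower and a median of 0.16. The labels do not state whether the numbers pair the samples. Same-numbered libraries correlated at 0.03 in their deviations from the group means. With 2 libraries a group this value cannot decide whether same-numbered libraries share an origin. With 2 libraries a group, simulated counts for PAM3CSK4 against Th17 gave calls for 57.6% of genes changed by 0.5 on the log2 scale and for 88% of those changed by 1.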
